A study of Mus musculus with 28 samples.

Results

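The contractile apparatus of smooth muscle was followed through 10 genes: Acta2 and Actg2 (the smooth muscle actins), Myh11 and Mylk (the motor and the kinase that switches it on), Smtn, Lmod1, Cnn1 and Tagln (proteins of the actin filament), and Des and Synm (intermediate filament proteins). They were taken by symbol, through their Ensembl gene identifiers, from a table of 51912 genes, and all 10 passed the low-count filter in every fit. The table holds nuclear RNA of C57BL/6 mice given AAV9-CaMKII-EGFPKASH intravenously, a virus that tags nuclei with a green fluorescent protein where the CaMKII promoter is active. After 5 weeks the longitudinal muscle with the attached myenteric plexus was peeled from colon and small intestine, and intact single nuclei were sorted into EGFP+ nuclei, labelled neuronal, and EGFP- nuclei, labelled non-neuronal. The animals were germ-free (GF) or specific pathogen-free (SPF), which gave 8 groups: each fraction of each segment, with 4 SPF or 3 GF libraries. All groups share the strain, the virus and the interval, and the sources used here do not give the age of the mice. The non-neuronal fraction is every nucleus without the tag, so it can hold neurons the virus missed, and muscle, glia, fibroblasts and any other cell of the peeled layer. Nothing in the labels says which libraries came from different animals, so each p-value reflects library-to-library spread, part of which may be technical.

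In smooth muscle, calcium entry activates calmodulin and with it myosin light chain kinase, the product of Mylk, which phosphorylates the light chains of the Myh11 motor so that it pulls on actin filaments. The thin filaments are stabilised and tuned by leiomodin, smoothelin, calponin and transgelin, and desmin and synemin link the contractile units to dense bodies and to the membrane. In the gut wall these proteins move the contents along, under control of the myenteric neurons that lie between the muscle layers.

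Many genes of this set are known targets of serum response factor, which binds a DNA element called the CArG box, and so the starts of the genes were read for it. RefSeq windows on GRCm38.p6, from 250 bases before to 50 after the start of a gene, were found for 7 of the 10 genes (not for Actg2, Myh11 and Tagln). The element was searched as CCNNNNNNGG with at most 1 G or C among the 6 middle bases, a form that reads the same on both strands. It occurred in 2 of the 7 genes and in 9.984% of all 32851 windows of that length, and with no G or C in the middle in 0 of the 7 and in 1.629% of the windows. The stretches below are the 3 matches with their neighbouring bases, on the strand of the gene, and capitals mark the element.
Acta2, chr19:34255438-34255467, minus strand, element beginning 84 bases before the start: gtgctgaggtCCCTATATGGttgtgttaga
Acta2, chr19:34255388-34255417, minus strand, element beginning 34 bases before the start: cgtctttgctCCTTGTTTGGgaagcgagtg
Synm, chr7:67759962-67759991, minus strand, element beginning 239 bases before the start: caacggggagCCTCATAAGGtgtcccagat
Both Acta2 stretches lie within an untranslated exon of a longer Acta2 transcript in GENCODE M21, and the Synm stretch overlaps an exon of Gm45102 on the other strand. A match describes the letters only.

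Library totals ran from 2394517 to 7321922 counts, and levels are given as CPM, the counts scaled to a library total of 1e+06. The 12 enteric neuron markers summed to 4713 to 7775 CPM in the 14 neuronal libraries, against 989 to 2228 CPM in colonic and 53.5 to 975 CPM in small intestinal non-neuronal libraries. In non-neuronal libraries epithelial markers summed to 1667 to 12278 CPM in the colon and 157 to 1904 CPM in the small intestine, and endothelial markers to 512 to 1345 and 50.7 to 195 CPM. The mitochondrial genome gave 3.49% to 10.8% of counts in colonic and 11.1% to 35.6% in small intestinal non-neuronal libraries, and 0.42% to 6.82% in neuronal libraries. In the small intestinal non-neuronal groups, GF replicates 1, 2 and 3 had 35.6%, 13.4% and 23.7%, beside 11.1% to 12.9% in SPF. The SPF libraries fell into 2 sets that the labels do not name. Replicates 3 and 4 of each SPF group had 5594 to 16058 CPM of Xist, the RNA of the inactive X chromosome, and 0.903 to 5.85 CPM over 4 Y-linked genes, while replicates 1 and 2 had 7.12 to 63.0 and 379 to 674 CPM. All 12 GF libraries had 8.06 to 19.6 CPM of Xist and 131 to 733 CPM of the Y-linked genes, so SPF and GF groups are not matched in this respect. Results on SPF libraries were therefore also fitted with a term for the high-Xist libraries and with the low-Xist libraries alone, 2 per group, both chosen after the data were seen.

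**Figure D1:**
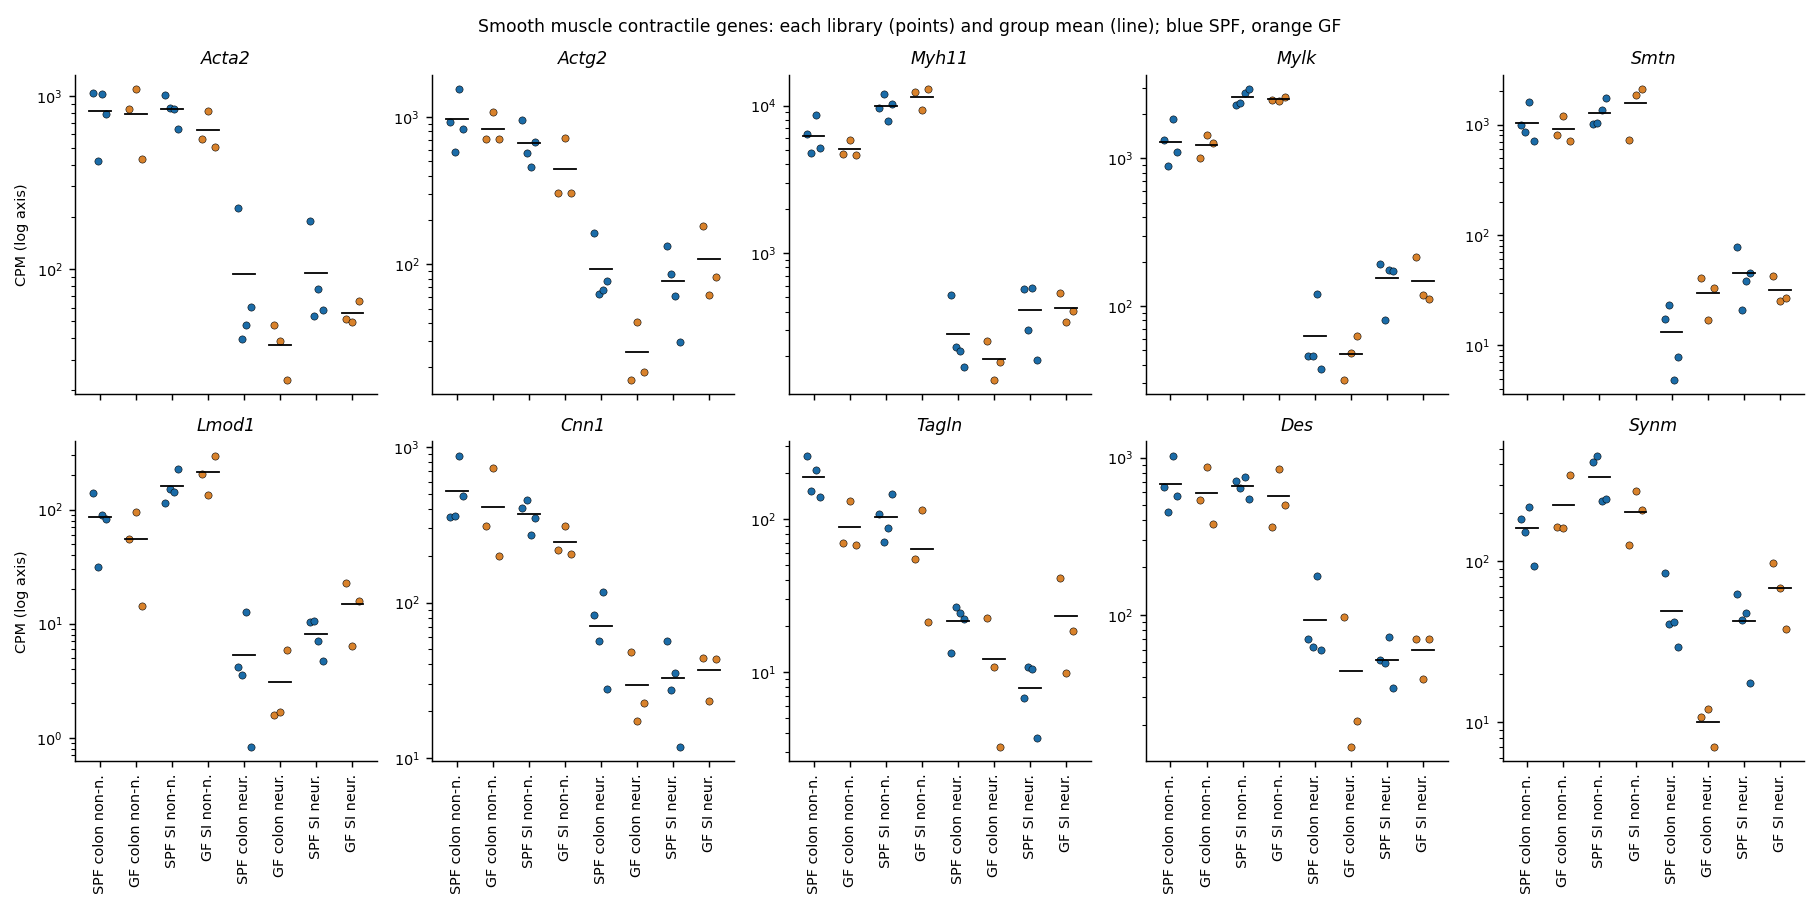
Levels of the 10 genes in each of the 28 libraries, in CPM on a log axis, by group; each point is 1 library. In every gene the non-neuronal libraries sit above the neuronal ones of the same segment and microbiota state, except that Tagln overlaps in the GF small intestine.

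The 10 genes together took 8637 to 17129 CPM in the 7 colonic and 14749 to 19707 CPM in the 7 small intestinal non-neuronal libraries, against 339 to 1348 CPM in the 14 neuronal libraries. The small intestinal level depended on scaling: the GF mean of 17975 CPM became 27134 CPM with TMM factors and 24086 CPM without mitochondrial genes in the total, and the SPF mean of 16949 CPM became 18735 and 19227 CPM. To compare genes with each other, levels were divided by the union exon length. Per kilobase, Myh11 stood highest in all 4 non-neuronal groups, at 821 ± 233 CPM/kb in the SPF colon, 1309 ± 224 in the SPF small intestine, 666 ± 90.0 in the GF colon and 1518 ± 259 in the GF small intestine (mean ± SD over 4 SPF or 3 GF libraries). In the small intestine its libraries lay above all those of the next gene, whereas in the colon they overlapped with those of Actg2, at 624 ± 263 CPM/kb in SPF and 535 ± 138 in GF. In the SPF colon the order per length went on with Acta2 (372 ± 131 CPM/kb), Smtn (238.04 ± 89.8), Cnn1 (190.0 ± 90.2), Des (179.8 ± 66.0), Mylk (115 ± 37.0) and Tagln (94.9 ± 27.6), each overlapping its neighbour. Lmod1 (21.8 ± 11.2 CPM/kb) and Synm (20.4 ± 6.69) came last there, below every library of Tagln. Lmod1 and Synm were also the lowest pair in the GF colon and the SPF small intestine, and in the GF small intestine Tagln came between them.

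The first comparison asked how far the sort separated muscle RNA from neuronal RNA. All 10 genes were lower in neuronal than in non-neuronal libraries in each segment and microbiota state. They were called lower by edgeR at an adjusted p below 0.05, 10 of 10 in the SPF colon, where 7.56% of 20964 genes were called lower, 10 of 10 in the SPF small intestine (6% of genes), 10 of 10 in the GF colon (4.98%) and 10 of 10 in the GF small intestine (5.34%). Median log2 fold changes over the 10 genes were -3.31, -3.89, -4.33 and -3.92 in that order, beside -0.05, 0.03, -0.07 and 0.02 over all genes tested. The libraries of the fractions did not overlap for 10, 10, 10 and 9 of the 10 genes, a count that was not made over all genes. Fewer muscle nuclei and less RNA of these genes per nucleus cannot be told apart in such sorted bulk samples. Markers of other cells of the wall moved with the fraction too. The 9 markers of fibroblasts and PDGFRA-positive cells summed to 919 to 1628 CPM in non-neuronal and 13.0 to 88.4 CPM in neuronal libraries, and the 6 pericyte markers, of the vessel-associated cells that also hold contractile proteins, to 588 to 1753 and 44.3 to 268 CPM, and their part in the result was not tested. With a term for the high-Xist libraries the counts were again 10 in both SPF segments, and with the low-Xist libraries alone they were 8 in the SPF colon and 10 in the SPF small intestine.

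Acta2 encodes the alpha actin of smooth muscle, found in vessels as well as in the gut wall (chr19:34241090-34255590, minus strand, GRCm38). In non-neuronal libraries it stood at 1032, 421, 1031 and 781 CPM in the SPF colon, 1004, 849, 844 and 643 in the SPF small intestine, 844, 1093 and 434 in the GF colon and 564, 821 and 508 in the GF small intestine. The neuronal libraries held 226, 39.5, 47.7 and 60.2 CPM in SPF colon, 189, 53.9, 76.8 and 58.3 in SPF small intestine, 47.8, 38.4 and 23.0 in GF colon and 51.6, 49.7 and 65.4 in GF small intestine. The fractions did not overlap in any of the 4 settings, and replicate 1 was far above the other neuronal libraries in both SPF segments. Acta2 was 8.75-fold lower in neuronal libraries of the SPF colon (log2 fold change -3.16 with SE 0.46, adjusted p = 1.23e-05 by edgeR), and 8.83-, 21.7- and 11.4-fold lower in the small intestine of SPF mice and in the colon and small intestine of GF mice. Without replicate 1 of the SPF colonic neuronal group the log2 fold change there was -4.09, and without replicate 1 of the SPF small intestinal neuronal group it was -3.90 in that segment, where all libraries gave -3.31. With the low-Xist libraries alone the value in the SPF colon was -2.45 for Acta2. Replicate 1 of the SPF small intestinal neuronal group also had the highest summed level of 5 markers of interstitial cells of Cajal, the pacemaker cells, at 2408 CPM, and its part in the result was not tested.

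Actg2 encodes the gamma actin that is typical of visceral muscle (chr6:83512905-83536265, minus strand). Non-neuronal levels were 927, 579.9, 1546 and 832 CPM in the colon and 951, 570.3, 455 and 673 CPM in the small intestine of SPF mice, and 711, 1082 and 706 CPM in the colon and 304, 722 and 305 CPM in the small intestine of GF mice. Neuronal levels were 164, 62.5, 66.9 and 76.9 CPM in the colon and 133, 86.2, 61.4 and 29.5 CPM in the small intestine of SPF mice, with 16.5, 40.8 and 18.6 CPM and then 183, 62.4 and 81.5 CPM in the same segments of GF mice. No neuronal library reached the non-neuronal libraries of its setting, and GF small intestinal libraries came closest to each other. The ratio of means was 10.5-fold in the SPF colon, 8.54-fold in the SPF small intestine, 32.9-fold in the GF colon and 4.07-fold in the GF small intestine. In the GF colon it had the largest ratio of the 10 genes (log2 fold change -4.91 with SE 0.54, adjusted p = 4.5e-08 by edgeR). With the low-Xist libraries alone its log2 fold change in the SPF colon moved from -3.44 to -2.76.

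Myh11, the heavy chain of smooth muscle myosin (chr16:14194535-14291372, minus strand), took the largest share of the summed level of the 10 genes, 46.3% to 71.0% in every non-neuronal library. Its non-neuronal libraries held 6416, 4742, 8667 and 5143 CPM in SPF colon, 9642, 11958, 7843 and 10341 in SPF small intestine, 4675, 5848 and 4652 in GF colon and 12358, 9291 and 12958 in GF small intestine. Its neuronal libraries stood at 517, 231, 216 and 168 CPM in the SPF colon, 567, 299, 579 and 189.6 in the SPF small intestine, 253, 138 and 182 in the GF colon and 532, 342 and 403 in the GF small intestine. The lowest non-neuronal library, at 4652 CPM, was far above the highest neuronal library, at 579 CPM. Its ratio of mean CPM was the steadiest of the 10 genes across settings, at 22.0-, 24.3-, 26.5- and 27.1-fold. By fitted log2 fold change Mylk (-4.20 to -4.75) and Lmod1 (-4.00 to -4.53) were steadier than Myh11 (-4.51 to -5.45). In the GF small intestine the log2 fold change of Myh11 was -5.45 (SE 0.46, edgeR adjusted p = 6.26e-09), and -4.76 with library totals in place of TMM factors. That setting also moved Mylk from -4.75 to -4.09 and Lmod1 from -4.53 to -3.82.

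Mylk encodes myosin light chain kinase, the enzyme that turns a calcium signal into contraction (chr16:34745210-35002420, plus strand). Mylk measured 1343, 886, 1857 and 1108 CPM in the non-neuronal SPF colon, 2285, 2357, 2758 and 2951 in the SPF small intestine, 1002, 1433 and 1265 in the GF colon and 2481, 2459.8 and 2616 in the GF small intestine. The neuronal libraries held 45.9, 45.5, 121 and 37.6 CPM in SPF colon, 193, 80.3, 177 and 171 in SPF small intestine, 31.6, 48.2 and 62.8 in GF colon and 216, 118 and 112 in GF small intestine. Within each state and fraction every small intestinal library lay above every colonic one, apart from replicate 3 of the SPF colonic neuronal group, which lay above 1 SPF small intestinal library. Mylk was 20.8-fold lower in neuronal libraries of the SPF colon (log2 fold change -4.40 with SE 0.37, adjusted p = 4.63e-11 by edgeR), and 16.7-, 25.9- and 16.9-fold lower in the small intestine of SPF mice and in the colon and small intestine of GF mice.

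Smtn encodes smoothelin, an actin-binding protein of contractile smooth muscle cells (chr11:3517523-3540612, minus strand). In non-neuronal libraries it stood at 989, 861, 1608 and 712 CPM in the SPF colon, 1019, 1035, 1353 and 1729 in the SPF small intestine, 799.6, 1198 and 709 in the GF colon and 729, 1837 and 2094 in the GF small intestine. Neuronal levels were 17.3, 23.0, 4.87 and 7.80 CPM in the colon and 78.3, 21.0, 38.4 and 44.8 CPM in the small intestine of SPF mice, with 40.6, 16.8 and 32.7 CPM and then 42.5, 25.3 and 26.7 CPM in the same segments of GF mice. No fraction overlapped with the other within a setting. The ratio of Smtn was the largest of the 10 genes in 3 of the 4 settings, 78.6-fold in the SPF colon, 28.1-fold in the SPF small intestine and 49.3-fold in the GF small intestine. The neuronal libraries that set these ratios were low, with 4.87 CPM in replicate 3 of the SPF colonic neuronal group. With the low-Xist libraries alone the log2 fold change in the SPF colon was -5.58, beside -6.38 with all libraries. Gm11946, a transcript on the other strand, shares 714 exonic bases with Smtn, and 6.57% of 75-base windows on Smtn transcripts overlap it. Gm11946 averaged 778 to 1907 CPM in non-neuronal and 7.75 to 32.6 CPM in neuronal groups. The sources used here do not say whether the counting used the strand, and without it the reads of such a pair cannot be told apart.

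Lmod1 encodes leiomodin, which nucleates actin filaments (chr1:135324807-135368065, plus strand), and per length was among the least abundant of the 10 genes. Non-neuronal levels were 140.1, 31.6, 89.3 and 83.4 CPM in the colon and 115, 150.0, 144 and 228 CPM in the small intestine of SPF mice, and 55.1, 94.4 and 14.4 CPM in the colon and 206, 134 and 295 CPM in the small intestine of GF mice. Its neuronal libraries stood at 4.13, 3.52, 12.6 and 0.836 CPM in the SPF colon, 10.3, 10.5, 7.10 and 4.67 in the SPF small intestine, 1.59, 1.68 and 5.90 in the GF colon and 22.7, 6.43 and 15.9 in the GF small intestine. The fractions did not overlap, and the lowest value, in replicate 4 of the SPF colonic neuronal group, was near the level that 3 counts give. Lmod1 was lower in neuronal libraries by 16.4-, 19.6-, 17.9- and 14.1-fold in the colon and small intestine of SPF and then of GF mice. In the SPF colon the log2 fold change was -4.00 (SE 0.68, edgeR adjusted p = 9.78e-05) and -4.98 without replicate 3 of the neuronal group. In the GF colon it was -4.02, and -4.89 without replicate 3 of the neuronal group.

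Cnn1 encodes calponin, which restrains the myosin motor on the thin filament (chr9:22099216-22109630, plus strand). Its non-neuronal libraries held 356, 360.1, 879 and 484 CPM in SPF colon, 404, 457, 273 and 349 in SPF small intestine, 309, 732 and 198 in GF colon and 218, 309.9 and 204 in GF small intestine. Its neuronal libraries ran from 11.8 to 116 CPM. The fractions did not overlap within a setting, and 1 high library stood out in each colonic non-neuronal group, replicate 3 in SPF and replicate 2 in GF. The ratio was 7.34-fold in the SPF colon, 11.3-fold in the SPF small intestine, 14.1-fold in the GF colon and 6.62-fold in the GF small intestine, with edgeR adjusted p up to 6.8e-05. Without replicate 2 of the GF colonic non-neuronal group its log2 fold change moved from -3.67 to -3.05.

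Tagln encodes transgelin, a small actin-binding protein of early and mature smooth muscle (chr9:45929619-45936058, minus strand). Tagln measured 258, 152, 207 and 138 CPM in the non-neuronal SPF colon, 108, 70.9, 87.7 and 146 in the SPF small intestine, 69.2, 129.9 and 67.5 in the GF colon and 54.5, 114 and 21.3 in the GF small intestine. The neuronal libraries held 13.2, 26.5, 24.1 and 22.0 CPM in SPF colon, 6.78, 10.7, 10.4 and 3.69 in SPF small intestine, 22.6, 10.8 and 3.25 in GF colon and 41.2, 9.86 and 18.4 in GF small intestine. In the GF small intestine the fractions overlapped, since replicate 1 of the neuronal group was above replicate 3 of the non-neuronal group. There the difference was the smallest of the 10 genes, 2.74-fold (log2 fold change -1.95 with SE 0.64, adjusted p = 0.0434 by edgeR). That call was lost without replicate 1 (0.104) or 2 (0.139) of the non-neuronal or replicate 2 (0.216) or 3 (0.155) of the neuronal group, values being edgeR adjusted p, and was -2.58 in log2 fold change without replicate 1 of the neuronal group. It was also lost with no low-count filter (0.0719), with library totals in place of TMM (0.155) and with only the groups compared in the fit (0.118). In the GF colon Tagln was 7.28-fold lower (log2 fold change -2.72, edgeR adjusted p = 0.0077), a call lost without replicate 3 of the neuronal group (adjusted p = 0.0673), and the log2 fold change was -3.52 without replicate 1 of that group. In the SPF colon it was 8.79-fold and in the SPF small intestine 13.0-fold lower, and with the low-Xist libraries alone the colonic call was lost (edgeR adjusted p = 0.0509). Over Tagln transcripts, 53.3% of 75-base windows fall on Gm48529 or Pcsk7 on the other strand, and Gm48529 averaged 113 to 225 CPM in non-neuronal and 10.4 to 15.3 CPM in neuronal groups, so its counts are uncertain.

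Des encodes desmin, the main intermediate filament protein of muscle (chr1:75360329-75368579, plus strand). In non-neuronal libraries it stood at 652, 451, 1025 and 572 CPM in the SPF colon, 713, 642, 755 and 548 in the SPF small intestine, 539, 866 and 379 in the GF colon and 362, 852 and 497 in the GF small intestine. Its neuronal libraries ran from 14.5 to 177 CPM, and the fractions did not overlap in any setting. The ratio was 7.31-fold in the SPF colon, 12.8-fold in the SPF small intestine, 13.5-fold in the GF colon and 9.50-fold in the GF small intestine. Without replicate 1 of the GF colonic neuronal group, which stood at 96.97 CPM beside 14.5 and 20.9 CPM, the log2 fold change in the GF colon moved from -3.62 to -4.94.

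Synm encodes synemin, which joins desmin filaments to the cell's anchoring sites (chr7:67730160-67759742, minus strand). Non-neuronal levels were 183, 152, 219 and 93.9 CPM in the colon and 413, 452, 237 and 244 CPM in the small intestine of SPF mice, and 163, 162 and 343 CPM in the colon and 127, 272 and 208 CPM in the small intestine of GF mice. Neuronal levels were 84.7, 41.1, 41.8 and 29.5 CPM in the colon and 62.8, 43.2, 48.0 and 17.7 CPM in the small intestine of SPF mice, with 10.9, 12.1 and 7.08 CPM and then 98.4, 68.6 and 38.1 CPM in the same segments of GF mice. The GF colonic neuronal libraries were the lowest of the 4 neuronal groups, with no overlap with the others. The ratio was 3.29-fold in the SPF colon (log2 fold change -1.77 with SE 0.43, adjusted p = 0.00525 by edgeR) and 22.2-fold in the GF colon (log2 fold change -4.35, SE 0.56, adjusted p = 1.32e-06). In the small intestine it was 7.84-fold in SPF and 2.96-fold in GF. With the low-Xist libraries alone the call in the SPF colon was lost (log2 fold change -1.46, edgeR adjusted p = 0.238).

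**Figure D2:**
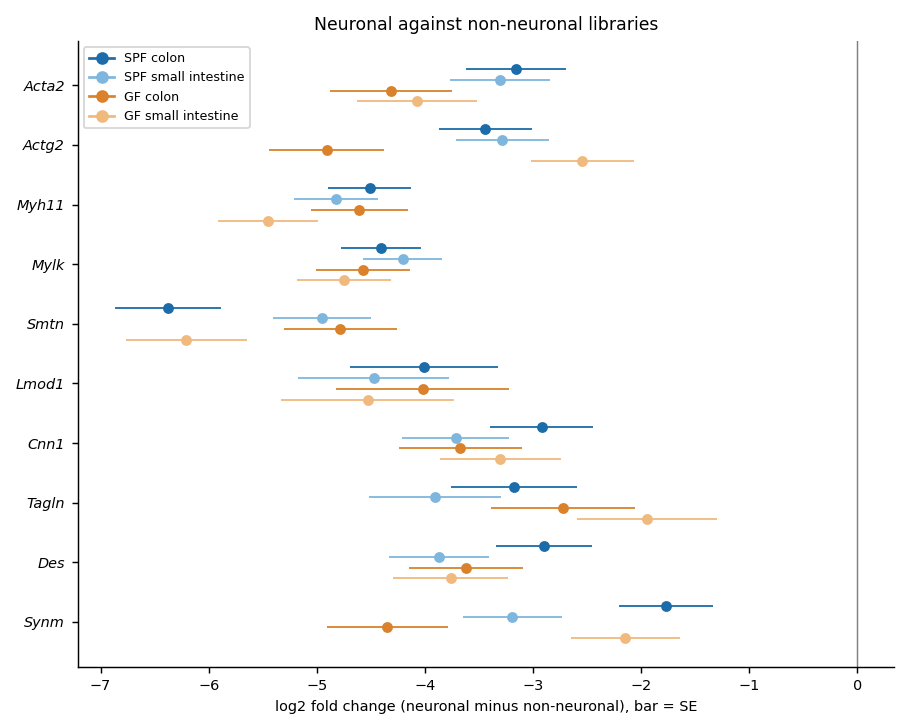
Log2 fold change of each gene, neuronal minus non-neuronal, from edgeR in the 4 settings, with bars of 1 SE; filled points have an adjusted p below 0.05. All 40 estimates lie below 0, from -6.38 for Smtn in the SPF colon to -1.77 for Synm in the SPF colon.

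The next comparison set colonic against small intestinal non-neuronal libraries. The motor and its kinase, Myh11 and Mylk, were called lower in the colon with and without a microbiota. In SPF the call of Myh11 held in 11 of 19 alternative settings and that of Mylk in 18. The actins, Cnn1, Tagln and Des were not called in either state. Of the 10 genes, 2 were called lower in SPF, beside 0.531% of 18267 genes, and 4 in GF, beside 0.493%, and none was called higher. At an unadjusted p below 0.05 there were 5 in SPF and 4 in GF, and DESeq2 called 2 and 3, without the share over all genes. In SPF the pair that DESeq2 called was Mylk and Synm, and Myh11 was not called. With the low-Xist libraries alone the SPF count was 0, and with a term for the others 2. The median log2 fold change over the 10 genes was -0.59 in SPF and -0.62 in GF, beside 0.02 and 0.03 over all genes.

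Myh11, whose libraries are listed above, overlapped between segments in SPF (log2 fold change -1.12 with SE 0.24, adjusted p = 0.022 by edgeR) and not in GF (-2.08, SE 0.29, adjusted p = 0.000596). By CPM the colon was 1.59-fold lower in SPF and 2.28-fold lower in GF. The SPF call was lost without replicate 1, 2 or 4 of the colonic or replicate 2 of the small intestinal group, with edgeR adjusted p of 0.0711, 0.0971, 0.085 and 0.0901. It was also lost with DESeq2 (adjusted p = 0.0911), with all 28 libraries in the fit (edgeR adjusted p = 0.108) and with the low-Xist libraries alone (log2 fold change -1.47, edgeR adjusted p = 0.0524). The GF call held without each library in turn. Mylk did not overlap between segments in either state, with colonic libraries at 886 to 1857 CPM and small intestinal ones at 2285 to 2951 CPM over both states. Its log2 fold change was -1.42 in SPF (SE 0.25, edgeR adjusted p = 0.00353) and -1.88 in GF (SE 0.29, adjusted p = 0.00112). Both calls held without each library in turn, and with the low-Xist libraries alone the SPF value was -1.56 (adjusted p = 0.0651).

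Lmod1 did not overlap between GF segments and was 3.88-fold lower in the colon (log2 fold change -2.90 with SE 0.63, adjusted p = 0.0218 by edgeR). That call was lost without replicate 1 or 3 of either group, with edgeR adjusted p of 0.113 and 0.156 for the colonic and 0.076 and 0.119 for the small intestinal replicates, and with only the groups compared in the fit (0.0834). Smtn overlapped between GF segments and was called lower in the colon (log2 fold change -1.55 with SE 0.35, adjusted p = 0.027 by edgeR). It was not called without replicate 1, 2 or 3 of the colonic group (edgeR adjusted p 0.155, 0.0654 and 0.22) or replicate 3 of the small intestinal group (0.286), nor by DESeq2 (0.0545), with all 28 libraries in the fit (0.11) or with only the groups compared (0.0988). In SPF, Lmod1 was at -1.35 (edgeR adjusted p = 0.19) and Smtn at -0.72 (adjusted p = 0.227). Synm did not overlap between SPF segments, at -1.50 (SE 0.39, edgeR adjusted p = 0.0533), and was called with no low-count filter (adjusted p = 0.035) and by DESeq2 (0.0336). In GF its value was -0.57 (95% confidence interval -1.48 to 0.33).

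Actg2 was at 0.14 in SPF (95% confidence interval -0.47 to 0.76) and 0.22 in GF (-0.49 to 0.93). Cnn1 was at 0.06 (-0.70 to 0.82) and -0.06 (-0.94 to 0.82). Acta2, Des and Tagln gave -0.46, -0.39 and 0.45 in SPF and -0.45, -0.66 and -0.19 in GF. None of these 5 genes was called, and all 10 intervals span 0, which does not show that the segments were alike.

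**Figure D3:**
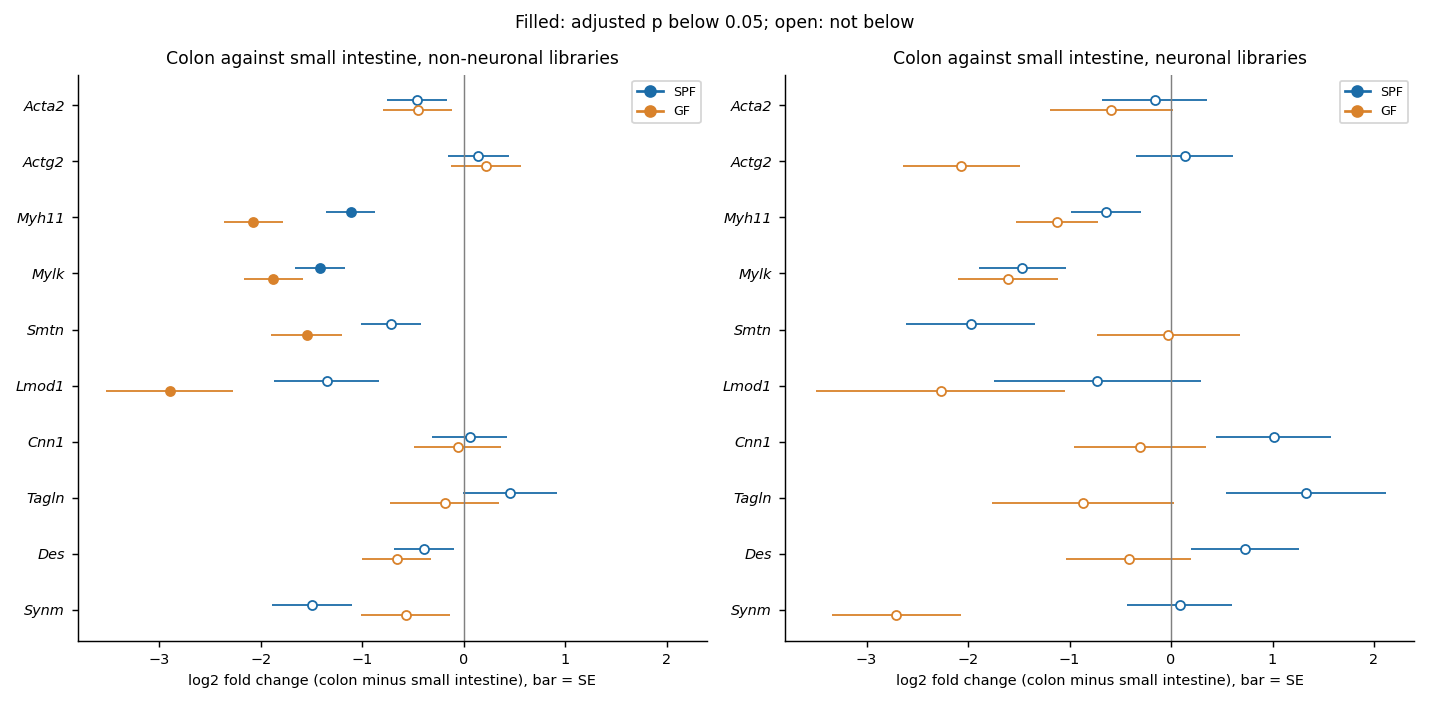
Log2 fold change of each gene, colon minus small intestine, from edgeR, with bars of 1 SE, by fraction and microbiota state; filled points have an adjusted p below 0.05. In non-neuronal libraries Myh11 and Mylk lie below 0 in both states, and Actg2 lies at 0.14 and 0.22.

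Ratios of genes within a library do not depend on how libraries are scaled to each other. The CPM ratio of Mylk to Actg2 was 1.20 to 1.53 in the 4 SPF and 1.32 to 1.79 in the 3 GF colonic non-neuronal libraries, against 2.40 to 6.07 and 3.41 to 8.57 in small intestinal ones, with no overlap. The ratio of Myh11 to Acta2 was 5.35 to 10.7 in GF colonic and 11.3 to 25.5 in GF small intestinal libraries, and overlapped in SPF (6.22 to 11.3 against 9.29 to 16.1). In GF small intestinal replicates 1, 2 and 3 it was 21.9, 11.3 and 25.5, and Mylk to Actg2 was 8.16, 3.41 and 8.57. Replicates 1 and 3 of that group had mitochondrial shares of 35.6% and 23.7% and TMM factors of 0.542 and 0.636, beside 13.4% and 1.04 in replicate 2. The part of this in the ratios was not tested. Myh11 to Mylk overlapped in both states, at 4.64 to 5.35 against 2.84 to 5.07 in SPF and 3.68 to 4.67 against 3.78 to 4.98 in GF. Such ratios show that the genes differed unequally between segments, and not which of a pair differed. Other pairs were computed and are not shown. The ratios use the same counts as the segment tests, so they are a description and no separate support.

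**Figure D4:**
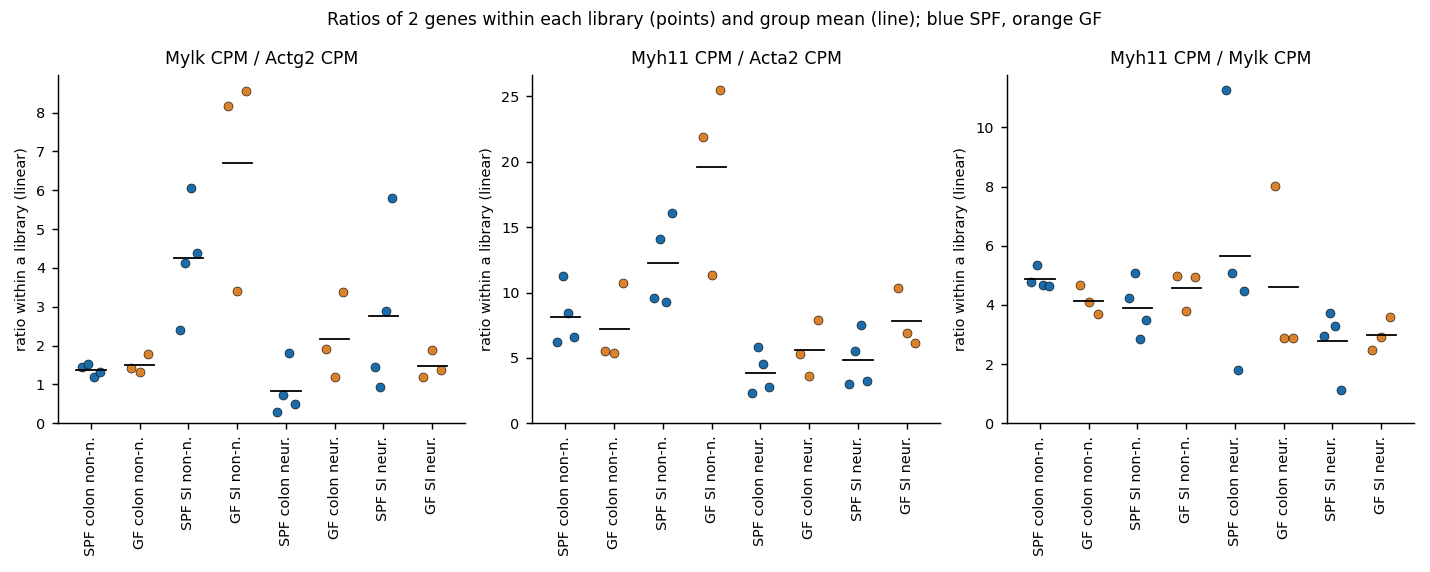
Ratios of CPM within each library for Mylk over Actg2, Myh11 over Acta2 and Myh11 over Mylk, by group; each point is 1 library. Mylk over Actg2 separates colonic from small intestinal non-neuronal libraries, while Myh11 over Mylk does not.

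Several measures moved with segment in the non-neuronal libraries. Neuron, epithelial and endothelial marker sums were higher in the colon and the mitochondrial share was higher in the small intestine, with the values given above. Pericyte marker sums were higher in the small intestine of SPF mice, at 1493 to 1753 CPM against 588 to 1152 CPM in the colon, and overlapped in GF (746 to 1750 against 744 to 1179 CPM). The sums of fibroblast and PDGFRA-positive cell markers were 1364 to 1628 CPM against 931 to 1345 CPM in SPF, without overlap, and 937 to 1453 against 919 to 1148 CPM in GF. The part of these differences in the segment results was not tested. Scaling mattered: with library totals in place of TMM the median over all genes moved to 0.43 in SPF and 0.73 in GF, and 1 gene was called in SPF (Mylk) and 1 in GF (Myh11, log2 fold change -1.19). Under that scaling SPF Myh11 was -0.67 (edgeR adjusted p = 0.072), and GF Mylk was -1.03 (edgeR adjusted p = 0.0772), Lmod1 -1.95 (0.19) and Smtn -0.78 (0.38).

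**Figure D5:**
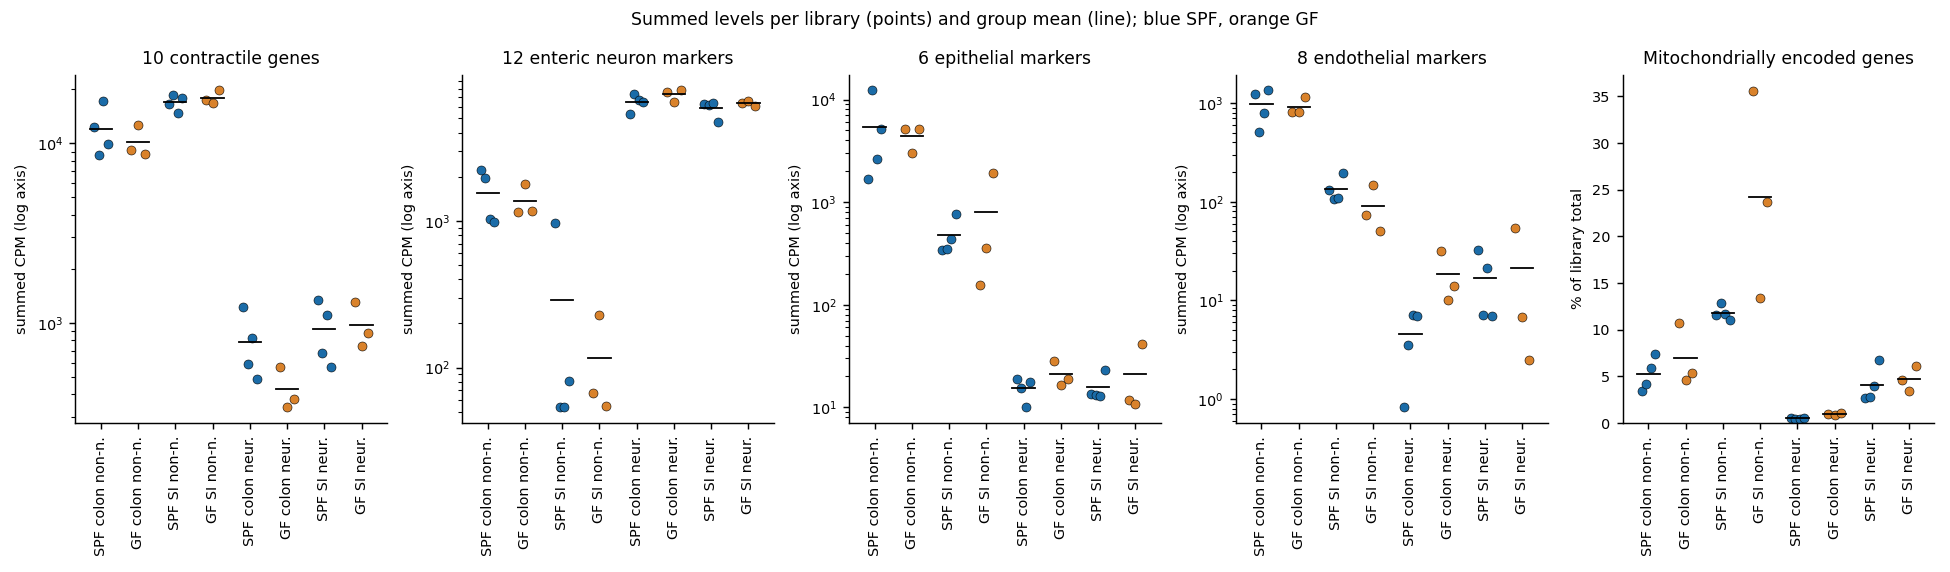
Summed CPM of the 10 genes and of neuron, epithelial and endothelial markers, and the percent of counts from mitochondrially encoded genes, in each of the 28 libraries by group. Endothelial marker sums of colonic non-neuronal libraries (512 to 1345 CPM) lie above those of small intestinal ones (50.7 to 195 CPM).

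In neuronal libraries, the low remaining levels were also compared between segments. None of the 10 genes was called by edgeR in SPF (0.653% of 17298 genes were called in either direction) or GF (0.301%), and the SPF count was also 0 with the low-Xist libraries alone and with a term for the others. At an unadjusted p below 0.05 there were 2 in SPF and 4 in GF, and DESeq2 called 2 in each, again without the share over all genes. In SPF DESeq2 called Smtn (log2 fold change -1.98, edgeR adjusted p = 0.177, DESeq2 0.0273) and Mylk (-1.46, edgeR 0.128, DESeq2 0.0405). Without replicate 3 of the SPF colonic group, which held 120.7 CPM beside 37.6 to 45.9 CPM, Mylk was called (log2 fold change -2.05, edgeR adjusted p = 0.0268). In GF, Synm (log2 fold change -2.71, edgeR adjusted p = 0.0645) and Actg2 (-2.06, 0.167) were the pair that DESeq2 called (adjusted p = 0.000637 and 0.0304). Of the 10 genes, 6 did not overlap between GF segments, a count that was not made over all genes. All 10 estimates were below 0 in GF, against 5 in SPF. The 10 genes share libraries and scaling, so these counts are a description and no test of the set. Mitochondrial transcripts made up 0.42% to 1.06% of counts in colonic and 2.75% to 6.82% in small intestinal neuronal libraries. Pericyte marker sums were 44.3 to 105 CPM in colonic and 121 to 268 CPM in small intestinal neuronal libraries, without overlap, and sums of markers of interstitial cells of Cajal were 299 to 504 and 472 to 2408 CPM. The part of these measures in the segment values was not tested.

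The microbiota comparison asked whether germ-free housing changed these genes. None of the 10 was called between SPF and GF in colonic neuronal (0% of 17298 genes called), small intestinal neuronal (0%), colonic non-neuronal (0% of 18267) or small intestinal non-neuronal libraries (0.00547%). At an unadjusted p below 0.05 there were 3, 0, 1 and 1 genes in that order, and DESeq2 called 1, 0, 0 and 0, without the share over all genes. All SPF values carry the unmatched Xist levels, and with the low-Xist libraries alone or a term for the others the edgeR counts were again 0 in all 4 comparisons.

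In colonic neuronal libraries Synm averaged 49.3 ± 24.3 CPM in SPF and 10.0 ± 2.63 in GF (SD, 4 and 3 libraries), without overlap (log2 fold change 2.16 with SE 0.61, adjusted p = 0.389 by edgeR, DESeq2 adjusted p = 0.0208). Actg2 did not overlap either, at 92.5 ± 47.8 against 25.3 ± 13.5 CPM (log2 fold change 1.74, edgeR adjusted p = 0.411). Acta2 overlapped (1.22, adjusted p = 0.532 by edgeR). The same libraries differed without overlap in mitochondrial share, at 0.423% to 0.598% in SPF and 0.867% to 1.06% in GF, and in endothelial marker sum, at 0.826 to 7.18 CPM in SPF and 10.1 to 31.6 CPM in GF, and the part of these in the values was not tested. In colonic non-neuronal libraries Tagln was higher in every SPF than in every GF library, at 189 ± 54.8 against 88.8 ± 35.5 CPM (log2 fold change 1.11 with SE 0.52, adjusted p = 1 by edgeR). Myh11 in small intestinal non-neuronal libraries was at -0.65 (95% confidence interval -1.18 to -0.11, edgeR adjusted p = 0.38). For the abundant genes the intervals were narrow enough to bound the change: in colonic non-neuronal libraries the 95% confidence interval of the log2 fold change was -0.45 to 0.62 for Mylk and -0.23 to 0.85 for Myh11. For Lmod1 in colonic neuronal libraries the interval was -1.62 to 2.99, which leaves room for a large change in either direction.

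Whether the fraction or segment differences themselves varied was tested with interaction terms. None of the 10 genes was called for a fraction difference that varied with segment in SPF (0.892% of 20964 genes called in either direction) or GF (0.21%). None was called for one that varied with microbiota state in colon (0%) or small intestine (0%), or for a segment difference that varied with state in neuronal (0% of 17298) or non-neuronal libraries (0% of 18267). Unadjusted p below 0.05 was met by 2, 3, 3, 2, 3 and 1 genes in that order, and DESeq2 called 0, 1, 1, 0, 0 and 0. The share over all genes is not given for either. The edgeR counts were also 0 with the low-Xist SPF libraries alone and with a term for the others. The genes DESeq2 called were Actg2 for fraction by segment in GF (log2 difference -2.37, SE 0.65, edgeR adjusted p = 0.113, DESeq2 0.0473), and Synm for fraction by state in the colon (2.58, SE 0.66, edgeR 0.678, DESeq2 0.0155). Smtn had estimates of -1.43 for segment in SPF and 1.43 in GF, opposite in sign and neither called (edgeR adjusted p = 0.21 and 0.389). The larger segment difference of Myh11 in GF than in SPF non-neuronal libraries was not called (0.96, SE 0.37, edgeR adjusted p = 0.663).

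Lists of the surrounding pathway were followed in the same main fits. They were not refitted under the Xist settings, with DESeq2 or under the other alternatives. In the counts between fractions, lower means called lower by edgeR at an adjusted p below 0.05. Over all genes, 7.56% and 6% were called lower in the SPF colon and small intestine, and 4.98% and 5.34% in the GF colon and small intestine. Of 20 partners that build and crosslink the filaments, 16, 15, 14 and 17 were lower in neuronal libraries of the colon and small intestine of SPF and then of GF mice, with medians of -2.26, -2.52, -2.02 and -2.97. In the SPF colon the largest were Cnn2, a second calponin (1.74 against 75.9 CPM, neuronal against non-neuronal), Cald1, caldesmon of the thin filament (41.8 against 942 CPM), Pgm5, aciculin of the attachment plaques (7.24 against 134 CPM), and Tpm2, a tropomyosin (84.9 against 1398 CPM). Actn1, an actin crosslinker, went the other way in the GF colon and was called higher in neuronal libraries (410.0 against 148 CPM, edgeR adjusted p = 0.00454).

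Of 17 genes that control myosin phosphorylation, 7, 6, 5 and 5 were lower, and the medians of -0.71, -1.01, -0.34 and -1.11 were nearer 0 than those of the 10 genes. The lower genes in the SPF colon included Ppp1r14a, an inhibitor of myosin phosphatase (0.271 against 9.46 CPM), Mrvi1, a target of the cGMP-dependent kinase (7.92 against 246 CPM), and the phosphatase subunits Ppp1r12a (233 against 2382 CPM) and Ppp1r12b (139 against 841 CPM). Pde5a, which degrades cGMP, was called higher in neuronal libraries of the GF small intestine (332 against 98.3 CPM, edgeR adjusted p = 0.0267).

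Of 15 genes tested for calcium handling and excitability, 5 and 2 were lower in the SPF and GF colon, and 11 and 9 in the SPF and GF small intestine. In the SPF colon Adra1a, an alpha-adrenergic receptor, had 0 against 13.2 CPM, Pln, the regulator of the reticulum's calcium pump, 0.31 against 15.9 CPM, Kcnmb1, a subunit of the large-conductance potassium channel, 5.51 against 184 CPM, and Cacna1c, the L-type calcium channel, 343 against 914 CPM. For 2 calcium pumps a fraction difference that varied with segment was called: Atp2a2, of the reticulum, in SPF (log2 difference 2.17, SE 0.56, edgeR adjusted p = 0.0492) and Atp2b4, of the plasma membrane, in GF (2.46, SE 0.45, adjusted p = 0.00665). Over all genes, 0.892% in SPF and 0.21% in GF were called in either direction. The 2 calls were not checked under other settings. Of 12 transcription factors and cofactors of smooth muscle, 5, 5, 5 and 4 were lower in neuronal libraries, among them Myocd, the coactivator of serum response factor (7.47 against 69.4 CPM in the SPF colon), Foxf1 (0.488 against 52.7 CPM), Klf4 (0.724 against 69.3 CPM) and Hopx (0 against 5.05 CPM). Of 9 other actin and myosin heavy chain genes 3, 3, 3 and 4 were lower, and in the SPF colon these were the cytoplasmic actins Actg1 (76.7 against 339 CPM) and Actb (263 against 903 CPM) and the non-muscle myosin Myh9 (77.2 against 246 CPM). Myh14, another non-muscle myosin, was called higher in neuronal libraries of the SPF small intestine (64.2 against 6.13 CPM, edgeR adjusted p = 0.00671).

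Between non-neuronal segments, edgeR called lower in the colon 1 of 20 filament partners, 2 of 17 genes of myosin phosphorylation and 1 of 15 of calcium handling in SPF, beside 0.531% of all genes, and 2, 2 and 1 in GF, beside 0.493%. It called 0 of 12 transcription genes and 0 of 7 other actins and myosins in each state, where 3 and 2 of them in SPF and 1 and 2 in GF had an unadjusted p below 0.05. Ppp1r12a and Atp2b4 were lower in the colon in both states, Ppp1r12a at 2382 against 4207 CPM in SPF (edgeR adjusted p = 0.00388) and 1802 against 4237 CPM in GF (0.000136). Tpm1, a tropomyosin (2282 against 3352 CPM), and Prkg1, the cGMP-dependent kinase (32.4 against 148 CPM), were lower in SPF, and Cald1 (659.5 against 1235 CPM), Tpm2 (1246 against 1927 CPM) and Gucy1b1, a subunit of guanylyl cyclase (88.9 against 245 CPM), in GF. In SPF neuronal libraries 1 of 20 filament partners, Cald1 (41.8 against 177 CPM), and 2 of 16 genes of myosin phosphorylation were called lower in the colon, beside 0.653% of all genes called in either direction, and 0 in the other 3 lists. In GF neuronal libraries edgeR called none, beside 0.301%, with 0 to 4 genes of a list at an unadjusted p below 0.05. None of the genes in these 5 lists was called by edgeR between SPF and GF, where 0 to 5 genes of a list had an unadjusted p below 0.05 in each comparison.

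Genes outside the set with the most similar profile were sought among 14521 genes of at least 5 CPM on average, by the root mean square difference of centred log2(CPM + 1) from the mean profile of the 10 genes, which includes each of them. Over all 28 libraries the closest were Tpm1, a tropomyosin (0.414), Flna, the actin crosslinker filamin (0.517), Ppp1r12a, the myosin phosphatase subunit (0.555), Lpp, of focal adhesions (0.613), and Synpo2, of actin bundles (0.642). Tpm1 was closer than any of the 10 genes. Acta2, Des, Myh11, Actg2, Cnn1 and Mylk came at ranks 2, 4, 6, 7, 9 and 11, and Synm, Lmod1, Tagln and Smtn at ranks 30, 34, 76 and 272. Over the 14 non-neuronal libraries alone the closest were Chd6 (0.209), Rev3l (0.213), Ppp1r12b (0.240), Fn1 (0.248) and Son (0.250), and the 10 genes spread from rank 3 for Des and 17 for Acta2 to 1890 for Tagln and 2952 for Lmod1. These distances share libraries and scaling with the values above and are a description only.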

How the data were processed

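Sorted nuclei were turned into cDNA with the Ovation RNA-Seq V2 kit, libraries were amplified over 8 PCR cycles, and 75-base single-end reads were taken on a HiSeq4000, per the labels' protocols. RSEM 1.3.0, STAR 2.5.2, DESeq2 1.10.1 and GRCm38 are named in the submitters' processing notes, with no role given. The authors deposited expected counts per Ensembl gene, of which 7.478% are not whole, 30.0% among the 10 genes; they were rounded. Symbols were found for 51633 of 51912 identifiers.

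CPM is over the library total, and 3 counts are 0.41 to 1.25 CPM. The main test was edgeR 4.0.16 (R 4.3.3, limma 3.58.1): TMM factors, filterByExpr, robust quasi-likelihood fits, Benjamini-Hochberg adjustment at 0.05. Comparisons within a fraction used its 14 libraries and others all 28. DESeq2 1.42.0, RLE size factors, library totals, other filters, fewer or more libraries and a replicate block were alternatives, read for the 10 genes only. Fits were tested on simulated data. Counts at an unadjusted p below 0.05 and counts called by DESeq2 are given without the share over all genes, so they cannot be set against a background. The 10 genes and the lists were chosen with earlier results of these data known. Of each pathway list up to 4 called genes of at least 5 CPM were named, by size of change; the 5 closest profiles were named. For 2 genes called between SPF neuronal segments only the count is given. Library totals alone and both Xist settings were chosen after the data were seen.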

Additional observations from a re-analysis of the deposited data

Results flagged for a closer look

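Within groups of 4 libraries, 5 values stood apart from the rest of their group, of 44 sets of values examined. The rule flags about 1 in 20 sets by chance only if values follow a normal distribution. CPM need not do so, and the sets share libraries, so that rate is no yardstick here. Acta2 was at 225.5 CPM in replicate 1 of the SPF colonic neuronal group, with the other 3 libraries far lower, and at 189.3 CPM in replicate 1 of the SPF small intestinal neuronal group. Actg2 was at 163.6 CPM in that same colonic library. In replicate 3 of the SPF colonic neuronal group, Mylk was at 120.7 CPM and Des at 177.1 CPM. All 5 are high values in neuronal libraries, and 4 of them come from the SPF colonic group.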

How the results depend on the processing

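Calls of the 10 genes between fractions depended on few choices: leaving out single libraries gave 10 in both SPF segments and 9 to 10 in both GF segments. Segment and interaction counts moved more. For non-neuronal segments the SPF count of 2 became 1 with library totals or all 28 libraries in the fit, 0 with the low-Xist libraries alone and 1 to 2 without single libraries. The GF count of 4 became 1 with library totals, 2 with only the groups compared and 2 to 4 without single libraries. For neuronal segments the SPF count of 0 became 1 with no low-count filter, 2 with DESeq2 or all 28 libraries and 0 to 1 without single libraries. The GF count of 0 became 2 with no filter or DESeq2 and 1 with all 28 libraries. Between fractions and segments in GF it became 1 with no filter or DESeq2 and 2 with library totals. DESeq2 gave 1 for the colonic fraction difference by state and 1 for SPF against GF in colonic neuronal libraries. The cause was not tested.

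Signs turned only for log2 fold changes that were not called. For SPF neuronal segments Actg2 went from 0.13 to -0.085 with the low-Xist libraries. For SPF non-neuronal segments Des went from -0.39 to 0.024 with library totals, Actg2 from 0.14 to -0.47 and Cnn1 from 0.06 to -0.76 with the low-Xist libraries. For GF non-neuronal segments Cnn1 went from -0.06 to 0.012 with RLE factors, 0.013 with DESeq2, 0.058 with all 28 libraries and 0.76 with library totals, which also gave Acta2 0.33, Tagln 0.49, Des 0.065 and Synm 0.14. Without single libraries, ranges crossed 0 for SPF neuronal Acta2 (-1.10 to 0.42), Actg2 (-0.31 to 0.55) and Synm (-0.32 to 0.34), SPF non-neuronal Actg2 (-0.19 to 0.35) and Cnn1 (-0.34 to 0.27), GF neuronal Smtn (-0.33 to 0.25), and GF non-neuronal Cnn1 (-0.59 to 0.33) and Tagln (-0.51 to 0.16).

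Replicate numbers occur in every group, and the labels do not say whether they follow animals. In each SPF group the high-Xist libraries were replicates 3 and 4. For each gene the deviation of its log2 CPM from the group mean was taken, and these deviations were correlated across genes. Between fractions or segments of the same state, same-numbered libraries gave correlations of -0.023 to 0.079, and differently numbered ones -0.062 to 0.073. Same-numbered SPF and GF libraries, which cannot share an animal, gave -0.068 to 0.029. Libraries were not paired in the main fits, and whether same-numbered libraries share an animal is not known. With the replicate number as a block, the counts between fractions were 10, 10, 10 and 9, Tagln in the GF small intestine being lost (edgeR adjusted p = 0.0742), and Synm was called between SPF non-neuronal segments (0.0298). Cnn1 there went to -0.027 with the block.

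Of other log2 fold changes, 899 kept direction and side of the threshold, and 752 without single libraries. At 2 or 3 libraries an arm, leaving one out assumes the rest vary like the other groups.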
